A study of Mus musculus with 8 samples.

Results

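Imprinted genes are genes whose transcription depends on the parent that passed the allele on. The list followed here held 37 known imprinted mouse genes, and a gene was taken as measured when a gene probe carried the RefSeq accession of one of its transcripts. In this way 32 of the 37 genes had a probe, 34 probes in all, out of 13971 named genes on the array. They comprised 17 of 20 paternally expressed genes, 14 of 16 maternally expressed genes and Gnas, whose parental expression depends on the isoform. Peg3, Nap1l5, Rtl1, H19 and Meg3 were matched to no probe, so their expression is not analysed here. Kcnq1 and Sfmbt2 had a probe but were not above background on all arrays of any genotype, so 30 genes were tested. Kcnq1 was above background in 1 of 8 embryos and Sfmbt2 in 2 of 8.

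The embryos came from matings of mice that carry an allele of Ott1 (current symbol Rbm15) with lowered expression. Rbm15 is an RNA-binding protein with roles in m6A methylation and splicing. Total RNA of whole E11.5 embryos was read on one-colour CodeLink arrays, 1 embryo to an array: 3 homozygous for the allele (embryos 2, 7 and 16), 3 heterozygous (embryos 3, 10 and 15) and 2 wild-type (embryos 11 and 13). No probe was matched to Rbm15, so its level was not checked, and the labels used here give no strain, sex or litter. The embryos are biological replicates, and every embryo came from such matings, the wild-type ones included.

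In genomic imprinting, DNA methylation laid down in the egg or the sperm marks a control region, and neighbouring genes are then read from the maternal or the paternal allele. Many paternally expressed genes, such as Igf2, Dlk1 and Peg10, favour growth of the embryo or placenta. Several maternally expressed genes, such as Igf2r, Cdkn1c, Grb10 and Phlda2, restrain it. A probe reads the RNA of both alleles together, so the values below are total levels and not allelic shares. In a whole embryo, fewer cells of a type and less RNA per cell cannot be told apart.

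Levels are log2 of the background-corrected scanner intensity after quantile normalization, and a difference of 1 on this scale is a 2-fold difference. Before normalization the median intensity was 61.4, 61.5 and 87.9 on the homozygous arrays 2, 7 and 16, and between 48.3 and 57.6 on the other 5, so homozygosity and brighter arrays cannot be told apart. Embryo 16 stood apart: its array correlated with the others at 0.956 to 0.968 (Pearson's r across the tested probes), while the other 7 correlated with each other at 0.973 to 0.990. Y-linked probes were low in embryos 16, 3 and 15, with a mean of 2 probes of 4.04, 5.03 and 4.34 log2, against 6.82 to 7.11 in the others. Of the 13 trophoblast genes with a probe, Prl8a9, Plac1, Gcm1, Hand1, Tfap2c and Psg17 were above background in 8 of 8 embryos and Prl3b1 in 7 of 8. Tpbpa was above background in 1 of 8 and Ctsq in 0 of 8, and the spots of Prl3d1 were marked and left out on every array. Prl3b1, a placental lactogen gene, had a difference of -1.44 log2 between homozygous and the other embryos, without overlap (limma adjusted p = 0.123, 7 embryos). Of all probes, 9.69% were lower in homozygous embryos without overlap. Prl3b1 was the most negative of the 7 tested trophoblast genes, of which 3 had positive and 4 negative differences. Their median was -0.057, against -0.063 over all probes. The summed intensity of the 13 trophoblast genes with a probe was 975 to 1187 in homozygous embryos and 850 to 1283 in the other embryos. The 850 was that of embryo 15, whose Prl3b1 spot was left out, and the next lowest was 1093 in embryo 13.

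The members whose homozygous values did not overlap those of the 5 other embryos were Asb4, Mkrn3, Sgce, Igf2r and Ppp1r9a. The sequence around their transcription starts is shown as a description of their CpG sites, and these starts differ in how many they hold. The control region that carries the methylation mark need not lie at these starts. RefSeq windows of the GRCm38.p6 assembly, from 250 bases before a start to 50 after it, were held for 4 of the 5, and Sgce had none. Asb4 has windows at chr6:5383136-5383435 and chr6:5390160-5390459, both on the plus strand. Mkrn3 has one at chr7:62420104-62420403 and Igf2r one at chr17:12769657-12769956, both on the minus strand. Ppp1r9a has windows at chr6:4902725-4903024 and chr6:4903061-4903360 on the plus strand. Each is written 5′ to 3′ on the strand of the gene, with every CG in capitals.
Asb4, first window: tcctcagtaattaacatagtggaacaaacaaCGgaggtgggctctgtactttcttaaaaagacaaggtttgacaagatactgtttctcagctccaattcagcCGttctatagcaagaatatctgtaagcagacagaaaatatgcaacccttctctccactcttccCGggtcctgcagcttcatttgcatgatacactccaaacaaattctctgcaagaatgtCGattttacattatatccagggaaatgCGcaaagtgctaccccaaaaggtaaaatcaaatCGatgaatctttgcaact
Asb4, second window: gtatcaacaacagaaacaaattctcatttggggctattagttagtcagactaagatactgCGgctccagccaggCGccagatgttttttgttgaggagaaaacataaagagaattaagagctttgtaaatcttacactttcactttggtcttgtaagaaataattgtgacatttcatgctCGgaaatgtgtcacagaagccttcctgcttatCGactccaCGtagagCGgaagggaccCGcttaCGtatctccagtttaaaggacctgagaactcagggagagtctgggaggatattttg
Mkrn3: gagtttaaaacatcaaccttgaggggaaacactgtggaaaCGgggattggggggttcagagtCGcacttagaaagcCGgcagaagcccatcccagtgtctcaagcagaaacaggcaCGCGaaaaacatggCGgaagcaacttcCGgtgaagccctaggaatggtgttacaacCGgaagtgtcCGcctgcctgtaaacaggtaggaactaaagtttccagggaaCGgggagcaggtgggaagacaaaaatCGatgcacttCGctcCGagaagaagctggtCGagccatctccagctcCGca
Igf2r: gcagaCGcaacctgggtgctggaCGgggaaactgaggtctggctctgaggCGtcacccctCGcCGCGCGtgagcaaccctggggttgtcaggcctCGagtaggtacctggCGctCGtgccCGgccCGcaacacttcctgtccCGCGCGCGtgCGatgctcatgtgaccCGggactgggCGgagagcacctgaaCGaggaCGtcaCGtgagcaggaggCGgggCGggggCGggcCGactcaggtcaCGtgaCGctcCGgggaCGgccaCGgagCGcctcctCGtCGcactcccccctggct
Ppp1r9a, first window: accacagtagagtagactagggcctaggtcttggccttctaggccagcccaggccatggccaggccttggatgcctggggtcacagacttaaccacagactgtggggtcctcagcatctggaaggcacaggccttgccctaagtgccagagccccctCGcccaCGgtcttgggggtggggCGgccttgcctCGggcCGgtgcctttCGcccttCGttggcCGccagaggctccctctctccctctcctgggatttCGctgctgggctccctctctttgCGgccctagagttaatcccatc
Ppp1r9a, second window: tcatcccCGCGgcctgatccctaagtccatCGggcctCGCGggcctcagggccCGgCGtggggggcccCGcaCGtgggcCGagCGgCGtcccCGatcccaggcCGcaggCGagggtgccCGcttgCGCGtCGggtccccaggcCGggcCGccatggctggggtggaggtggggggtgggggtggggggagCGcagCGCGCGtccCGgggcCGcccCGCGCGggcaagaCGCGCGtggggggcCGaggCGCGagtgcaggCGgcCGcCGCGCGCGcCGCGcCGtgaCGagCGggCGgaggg

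The Asb4 windows held 6 and 8 CpG, the Mkrn3 window 15 and the Igf2r window 34. Those of Ppp1r9a held 10 and 48. These few windows were chosen for the differences of their genes, and no relation to CpG number was tested. Windows were found for 30 of the 37 listed genes, Peg3, Nap1l5 and Meg3 without a probe among them, 49 windows in all, with a median of 13 CpG, against 7 in all 32851 windows of the table. The 18 windows of maternally expressed genes had a median of 16.5 CpG (range 1 to 48), and the 27 of paternally expressed genes a median of 10 (range 2 to 26). The hexamer TGCCGC, the core of the motif bound by the imprint-protecting zinc finger protein ZFP57, lay on either strand of 11 of the 49 windows (22.4%) and of 11.6% of all windows. A match is a description of these letters, several windows belong to one gene, and methylation was not measured.

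Set against the other 5 embryos, no imprinted gene passed the threshold in homozygous embryos (limma, Benjamini-Hochberg adjusted p below 0.05 over all tested probes). The same held in each of the other comparisons. Over all probes 0.107% of 23388 passed, 7 of them higher (0.0299%) and 18 lower (0.077%) in homozygous embryos; under cyclic loess normalization it was 20 higher of 42. At an unadjusted p below 0.05 there were 6 of 30 imprinted genes (20%), against 20% of all probes. Of the 6, Dlk1, Igf2r and Ppp1r9a had a higher mean in homozygous embryos (background 6.63%), and Mkrn3, Sgce and Asb4 a lower mean (background 13.4%). The share of imprinted genes equalled that of all probes. Sgce passed the filter on dim probes only through the wild-type embryos, where it was highest, so its place in these counts is fixed in part by the filter. Without it the count was 5 of 29, with 2 lower. Against wild-type alone there were 3 of 30 (background 15.3%), against heterozygous alone 2 of 30 (background 11.6%), and in heterozygous against wild-type embryos 2 of 30 (background 2.3%). These comparisons share arrays. Positive differences made up 15 of 30 in homozygous against the other embryos (all probes 39.8%), 16 of 30 against wild-type alone (40.1%), 16 of 30 against heterozygous alone (40%), and 12 of 30 in heterozygous against wild-type embryos (48.5%). Groups did not overlap for 2 genes with higher and 3 with lower homozygous values against the other 5 embryos (all probes 4.96% and 9.69%), or 2 lower without Sgce. The same was seen for 12 of 30 genes against wild-type alone (39.5%), 7 of 30 against heterozygous alone (19.2%) and 6 of 30 in heterozygous against wild-type embryos (19.7%). Adjusted calls among all probes made up 0.0342% in homozygous against wild-type embryos, 0.0214% in homozygous against heterozygous, and 0% in heterozygous against wild-type, where 538 probes had an unadjusted p below 0.05.

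The differences were small for most genes, and their precision differed. The 95% interval of the difference between homozygous and the other embryos lay within 0.5 log2 of 0 for 16 of 30 genes and within 1 log2 for 25 of 30. It was narrow for Grb10 (-0.15 to 0.21) and Mest (-0.14 to 0.25), and wide for Impact (-2.55 to 0.47), Sgce (-1.73 to -0.23) and Phlda2 (-1.26 to 0.93).

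**Figure D1:**
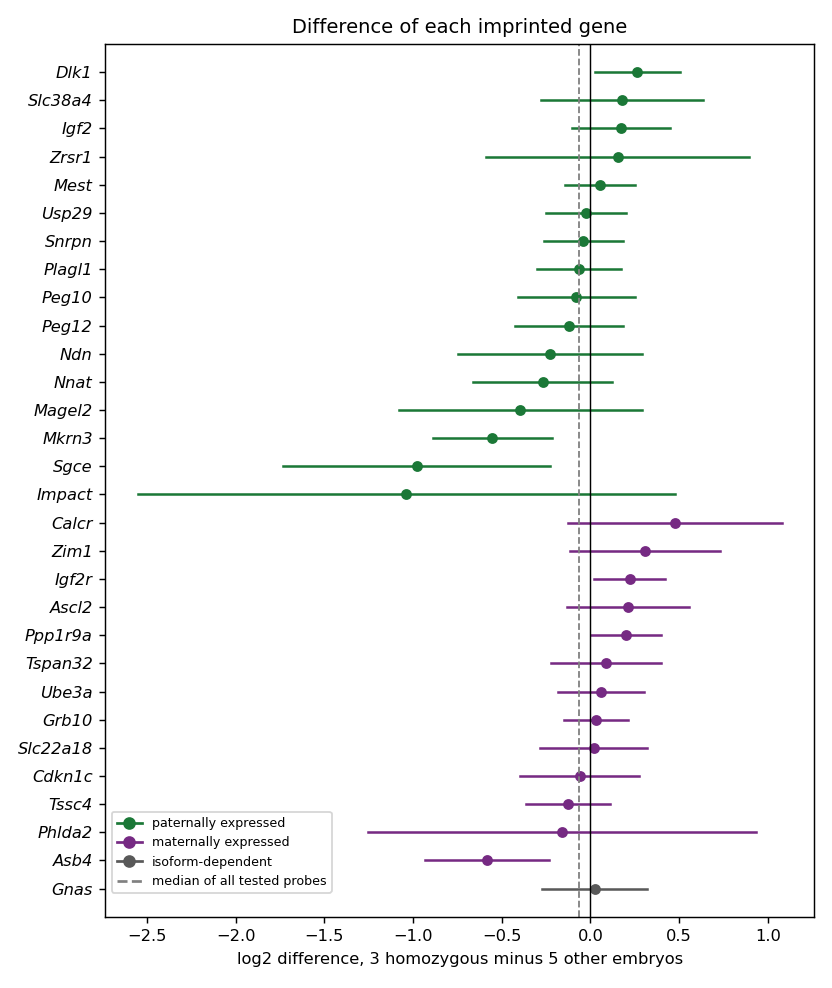
Difference in log2 level between the 3 homozygous and the 5 other embryos for each of the 30 tested imprinted genes, with the unadjusted 95% interval as a bar and the median of all tested probes (-0.063) as a dashed line. Dlk1, Igf2r and Ppp1r9a have intervals above 0, Mkrn3, Sgce and Asb4 below 0, and none passed the adjusted threshold.

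Paternally and maternally expressed genes were compared as classes by their median difference. The classes are those of the list, and whether each gene was read from a single allele in these whole embryos was not measured. The 16 paternally expressed genes had a median difference of -0.073 log2 in homozygous against the other embryos, 5 positive and 11 negative. Sgce is among the 11, with its sign fixed in part by the filter on dim probes. With only probes above background on all arrays, which leaves out Sgce among others, the paternal median was -0.041. The 13 maternally expressed genes had a median of 0.058, 9 positive and 4 negative. Over all probes the median was -0.063 and 39.8% of the differences were positive. The gap between the class medians, maternal minus paternal, was 0.13 log2 here, 0.20 in homozygous against wild-type embryos and 0.16 in homozygous against heterozygous embryos. It was 0.031 in heterozygous against wild-type embryos.

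The gap stayed positive under all 20 other settings tried for homozygous against the other embryos, between 0.077 and 0.24. These settings are not independent, since they share embryos. The trended prior and the floor at the 1st percentile left the gap at 0.13, and median scaling and the deposited table gave the same 0.22. The sign of the maternal median itself did not: under median scaling of the arrays it was -0.064 and that of the paternal genes -0.28, where the median of all probes was -0.22. Within genotypes the class medians of single embryos had an SD of 0.036 for maternally and 0.043 for paternally expressed genes, with each genotype weighted equally. The spread differed between genotypes. Maternal medians ran from -0.038 to 0.084 in homozygous and from -0.047 to -0.029 in heterozygous embryos. Paternal medians ran from -0.060 to -0.013 in homozygous and from -0.011 to 0.10 in heterozygous embryos.

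In single embryos, the median of the maternally expressed genes, each taken relative to its own mean over the 8 embryos, was -0.038, 0.035 and 0.084 in homozygous embryos 2, 7 and 16. It was -0.029, -0.047 and -0.047 in heterozygous embryos 3, 10 and 15, and -0.030 and -0.018 in wild-type embryos 11 and 13. Homozygous embryos 7 and 16 thus lay above the other 5, and homozygous embryo 2 lay among them. The paternally expressed genes had medians of -0.060, -0.013 and -0.025 in homozygous embryos, -0.0045, -0.011 and 0.10 in heterozygous embryos, and 0.038 and 0.081 in wild-type embryos. All 3 homozygous embryos lay below the 5 others, with heterozygous embryos 3 and 10 close above homozygous embryo 7. This separation did not hold relative to all probes, whose median was -0.017, 0.020 and -0.11 in homozygous embryos, 0.020, 0.038 and 0.026 in heterozygous embryos, and 0.040 and 0.026 in wild-type embryos. Minus that median, the paternal value was -0.043, -0.033 and 0.088 in homozygous embryos, -0.025, -0.048 and 0.078 in heterozygous embryos, and -0.0021 and 0.055 in wild-type embryos, with homozygous embryo 16 the highest of the 8. The maternal value minus that median was -0.021, 0.015 and 0.20 in homozygous embryos. It was -0.049, -0.085 and -0.073 in heterozygous embryos, and -0.071 and -0.043 in wild-type embryos. On this scale all 3 homozygous embryos lay above the 5 others in the maternal class, with embryo 2 closest to them. No test of a class was made, since its genes share embryos and were listed with earlier results of these data known.

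**Figure D2:**
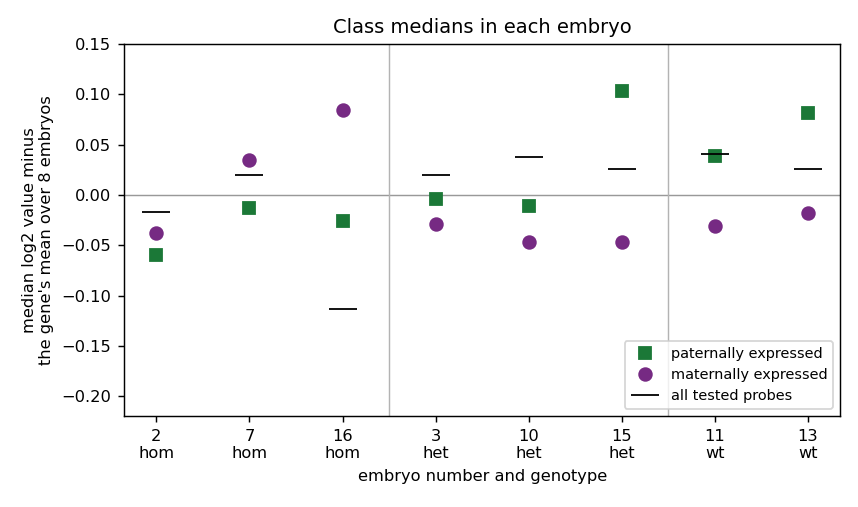
Median over the tested paternally expressed genes (squares, 15 or 16 genes) and maternally expressed genes (circles, 13 genes) of the log2 value minus each gene's mean over the 8 embryos, by embryo, with the same median over all tested probes as a dash. Maternal medians lie above paternal ones in the 3 homozygous embryos and below them in the 5 others.

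The Peg10 domain of proximal chromosome 6 holds genes of both parental classes. Asb4, a maternally expressed gene that encodes a subunit of a ubiquitin ligase, had levels of 7.97, 8.14 and 7.77 in homozygous embryos 2, 7 and 16. It had 8.48, 8.24 and 8.42 in heterozygous embryos 3, 10 and 15, and 8.78 and 8.79 in wild-type embryos 11 and 13. No genotype overlapped another, and heterozygous values lay between the others.

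Asb4 averaged 7.96 ± 0.19 in homozygous embryos (SD, n = 3) and 8.54 ± 0.24 in the others (SD, n = 5), a difference of -0.58 log2 (SE 0.15, 1.5-fold) that missed the threshold with limma (adjusted p = 0.141). Against wild-type alone the difference was -0.83 (limma adjusted p = 0.153), and between heterozygous and wild-type embryos it was -0.41 (unadjusted p = 0.024 and adjusted p = 0.9999 with limma). In homozygous against wild-type embryos it passed under 1 of 20 other settings, limma array weights (-0.76, adjusted p = 0.0411). The difference stayed negative in every setting run. In homozygous against the other embryos it was -0.49 without embryo 16.

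Sgce, a paternally expressed gene that encodes epsilon-sarcoglycan of the muscle and neuronal membrane, was dim. Its levels were 3.01, 4.76 and 4.20 in homozygous embryos, 4.81, 4.89 and 4.95 in heterozygous embryos, and 5.20 and 4.99 in wild-type embryos. It was not above background in homozygous embryo 2 and heterozygous embryo 10. Homozygous minus other embryos gave -0.98 log2 (SE 0.33), given as a description because the gene passed the filter only through the wild-type embryos. Without embryo 2 it was -0.48. It was -0.25 after the normexp background correction, which adds an offset to all spots and so compresses log2 differences most at low intensity.

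Ppp1r9a, a maternally expressed gene for the actin-binding protein neurabin, had its higher values in homozygous embryos. Its levels were 8.77, 8.77 and 8.67 in homozygous embryos, 8.58, 8.43 and 8.57 in heterozygous embryos, and 8.47 and 8.63 in wild-type embryos. Its groups did not overlap and differed by 0.20 log2 (SE 0.086, limma adjusted p = 0.242), and by -0.017 under median scaling, which is above the all-probe median there. Calcr, the maternally expressed calcitonin receptor gene, had 5.40, 5.44 and 6.35 in homozygous embryos, 5.51, 5.57 and 4.72 in heterozygous embryos, and 5.33 and 5.14 in wild-type embryos. Its difference of 0.48 (limma adjusted p = 0.337) was 0.18 without embryo 16. Peg10, a paternally expressed gene derived from a retrotransposon and needed for the placenta, differed by -0.080 (limma adjusted p = 0.774).

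The 5 genes of the domain thus held 2 positive and 3 negative differences. Both paternally expressed genes, Sgce and Peg10, had negative ones, and of the maternally expressed genes Asb4 had a negative one and Ppp1r9a and Calcr positive ones. The sign of Sgce is fixed in part by the filter on dim probes, and Peg10 (-0.080) lay near the all-probe median of -0.063. Beside Sgce, Asb4 and Ppp1r9a had an unadjusted p below 0.05, as did 20% of all probes.

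**Figure D3:**
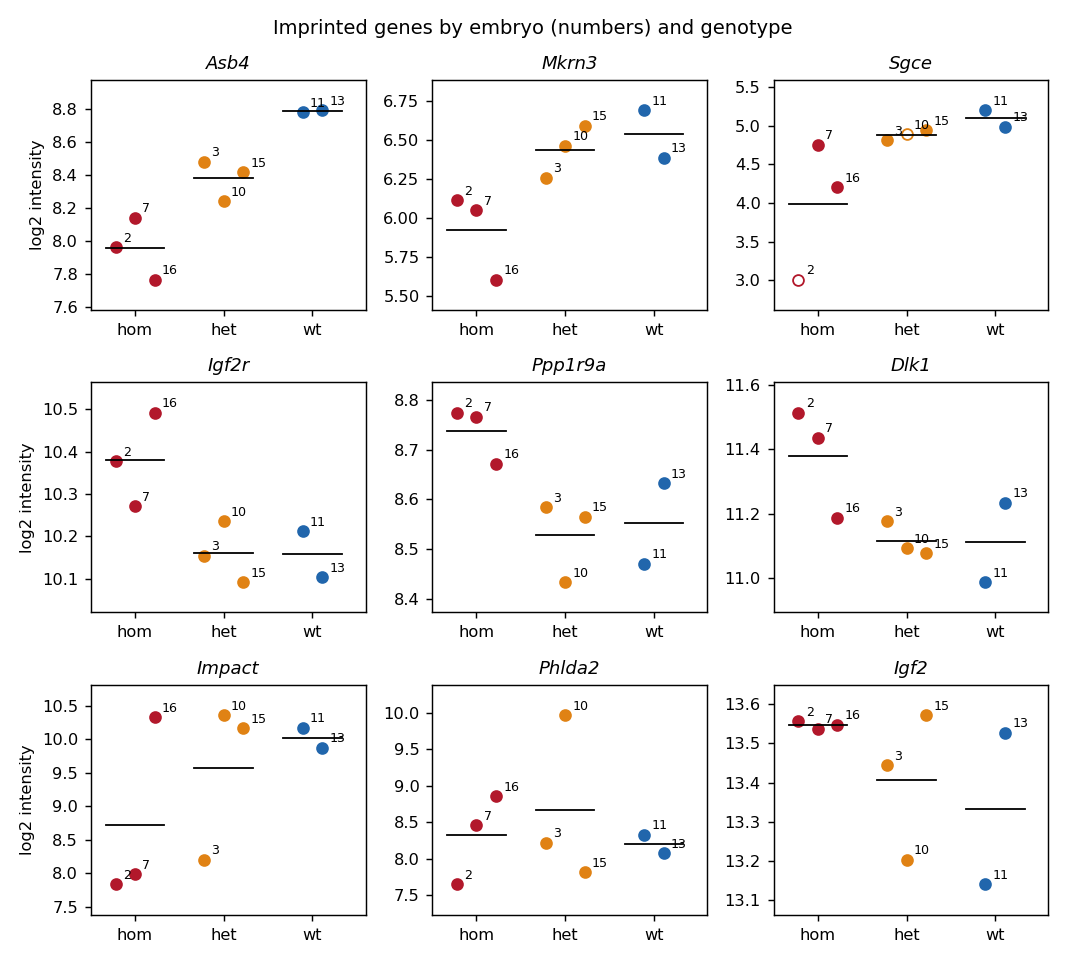
Log2 level of 9 imprinted genes in each embryo (numbers beside the points) by genotype, with the genotype mean as a line and open circles where the probe was not above background. Asb4 falls into 3 separate levels by genotype, Impact lies near 8 in embryos 2, 7 and 3 and near 10 in the others, and Phlda2 is highest in embryo 10. Each panel has its own scale.

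The Snrpn domain of central chromosome 7 is the mouse counterpart of the human Prader-Willi and Angelman region. Mkrn3, a paternally expressed gene for a ring-finger protein, had 6.11, 6.05 and 5.60 in homozygous embryos, 6.26, 6.46 and 6.59 in heterozygous embryos, and 6.69 and 6.38 in wild-type embryos. All homozygous values lay below all others. The difference was -0.55 log2 (SE 0.15, limma adjusted p = 0.141) and -0.42 without embryo 16. It was -0.61 against wild-type alone and -0.51 against heterozygous alone (limma adjusted p = 0.253 and 0.399).

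Of the 6 genes of the domain, 5 had a negative difference and Ube3a, the maternally expressed ubiquitin ligase gene, a positive one of 0.058. Over all probes the median was -0.063 and 39.8% of the differences were positive. Ndn, a paternally expressed gene for the neuronal growth suppressor necdin, had 9.97, 9.76 and 9.0 in homozygous embryos, 9.74, 9.67 and 9.53 in heterozygous embryos, and 9.99 and 10.11 in wild-type embryos. Magel2, its paternally expressed relative, had 5.25, 5.06 and 3.79 in homozygous embryos, 5.15, 5.28 and 4.85 in heterozygous embryos, and 4.98 and 5.23 in wild-type embryos. For Mkrn3, Ndn and Magel2 embryo 16 was the lowest of the 8, and homozygous embryos 2 and 7 overlapped the other genotypes for Ndn and Magel2. Snrpn, which encodes a splicing protein, differed by -0.041 and Peg12 by -0.12, the last over 7 embryos because the spot of embryo 16 was marked by the scanner software and left out.

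Median differences between homozygous and the other embryos were also read for lists of tissue markers. The 8 tested genes of skeletal muscle had a median difference of -0.57 log2, the 10 of neurons -0.44 with all 10 negative, the 7 of liver -0.42 and the 7 of visceral endoderm and yolk sac -0.57 with all 7 negative. Heart muscle (6 genes) had 0.38 and endothelium (6 genes) 0.22. Mesenchyme and cartilage (7 genes) had 0.17, erythroid cells (8 genes) 0.050 and neural progenitors (6 genes) -0.096. No gene of these lists passed the threshold. The all-probe median was -0.063, and 39.8% of all probes had a positive difference. Afp, Fgb and Hnf4a are on both the liver list and the visceral endoderm and yolk sac list, so these lists are not separate. On the second list, Amn was above background in 0 of 8 embryos, and Apoa4 and Hnf4a in 1 of 8 each. The summed intensity of its 10 genes with a probe was 3843 to 4685 in homozygous embryos and 4844 to 7700 in the other embryos. That of the 10 neuron genes was 6197 to 7235 in homozygous embryos and 6014 to 10510 in the other embryos, and that of the 8 skeletal muscle genes was 10424 to 12124 in homozygous embryos and 8877 to 10846 in the other embryos. Of these 8 genes, 2 had positive and 6 negative differences. The brightest, Actc1, weighs most in the sum and had 13.16 to 13.40 log2 in homozygous and 12.85 to 13.22 in the other embryos. The part of these tissues, of array brightness and of sex in the values of Asb4, Mkrn3, Sgce and the other genes was not tested.

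Ligand, receptors and inhibitors of the insulin-like growth factor pathway include the best known imprinted genes. Igf2, the paternally expressed growth factor, had 13.56, 13.54 and 13.55 in homozygous embryos, 13.44, 13.20 and 13.57 in heterozygous embryos, and 13.14 and 13.53 in wild-type embryos. The homozygous values were close together and lay within the range of the others. The difference was 0.17 log2 (SE 0.12, limma adjusted p = 0.444), and -0.21 under median scaling.

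Igf2r, the maternally expressed receptor that takes up IGF2 for breakdown, had 10.38, 10.27 and 10.49 in homozygous embryos, 10.15, 10.24 and 10.09 in heterozygous embryos, and 10.21 and 10.10 in wild-type embryos. The homozygous values all lay above the others, by a mean of 0.22 log2 (SE 0.088, 1.17-fold, limma adjusted p = 0.221). Under median scaling the difference was -0.064, which is 0.15 above the all-probe median of that setting. Relative to the all-probe median it was positive under all 20 settings, and it was 0.16 without embryo 16. Grb10, a maternally expressed adaptor that damps insulin and IGF receptor signalling, had 13.88, 13.94 and 14.01 in homozygous embryos, 13.94, 13.87 and 13.97 in heterozygous embryos, and 13.93 and 13.85 in wild-type embryos. A second Grb10 probe also differed little, by 0.029 log2 between homozygous and the other embryos.

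Of 18 listed non-imprinted genes of the pathway, 11 were tested and none passed. At an unadjusted p below 0.05, 2 had a higher mean (Igfbp2 and Igfbp3) and 1 a lower mean (Igf1) in homozygous embryos, where all probes had 6.63% higher and 13.4% lower. Igfbp2, a secreted IGF-binding protein, had 12.84, 12.55 and 12.79 in homozygous embryos, 12.27, 12.25 and 12.31 in heterozygous embryos, and 12.26 and 12.32 in wild-type embryos. Its groups did not overlap and differed by 0.44 log2 (SE 0.091, limma adjusted p = 0.111). Igf1, the second ligand, had 8.09, 8.14 and 8.32 in homozygous embryos, 8.85, 8.12 and 9.35 in heterozygous embryos, and 9.09 and 9.19 in wild-type embryos. The difference was -0.74 (limma adjusted p = 0.187), and heterozygous embryo 10 lay at the homozygous level.

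Dlk1, a paternally expressed Notch-like membrane protein of progenitor cells on distal chromosome 12, had 11.51, 11.44 and 11.19 in homozygous embryos. It had 11.18, 11.09 and 11.08 in heterozygous embryos, and 10.99 and 11.23 in wild-type embryos. Homozygous embryos 2 and 7 lay above all others, and embryo 16 did not. Set against the other embryos the difference was 0.26 log2 (SE 0.11, limma adjusted p = 0.220), 0.36 without embryo 16 and -0.069 under median scaling, where it was still above the all-probe median.

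The Kcnq1 domain of distal chromosome 7 holds maternally expressed genes that act in growth arrest and in the placenta. Cdkn1c, the cyclin-dependent kinase inhibitor p57, had 11.07, 11.32 and 11.10 in homozygous embryos, 11.22, 10.90 and 11.12 in heterozygous embryos, and 11.33 and 11.54 in wild-type embryos. Heterozygous values lay below both wild-type values, with a difference of -0.36 log2 (unadjusted p = 0.0438 and adjusted p = 0.9999 with limma). Homozygous and the other embryos differed by -0.060, and by 0.019 without wild-type embryo 13.

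Phlda2, which restrains placental growth, had 7.65, 8.46 and 8.86 in homozygous embryos, 8.22, 9.97 and 7.82 in heterozygous embryos, and 8.33 and 8.08 in wild-type embryos. It was named for its spread after its values were seen. Embryo 10 was the highest of the 8. Its trophoblast sum of 1219 lay within the range of the other embryos, where the sum of embryo 15 lacks the left-out Prl3b1 spot. The trophoblast genes Plac1 (8.18), Hand1 (8.23) and Gcm1 (6.44, as in embryo 7) were also highest in embryo 10. Prl8a9, Tfap2c and Psg17, also above background in every embryo, were not. A relation of Phlda2 to trophoblast content was not tested. The other tested genes of the domain, Slc22a18, Ascl2, Tspan32 and Tssc4, differed between homozygous and the other embryos by -0.13 to 0.21 log2, with every adjusted p (limma) at 0.441 or above.

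Impact, the paternally expressed inhibitor of the translation kinase GCN2, had the widest spread among the tested imprinted genes. Its levels were 7.83, 7.99 and 10.33 in homozygous embryos, 8.2, 10.36 and 10.17 in heterozygous embryos, and 10.17 and 9.88 in wild-type embryos. Embryos 2, 7 and 3 lay near 8 and the other 5 near 10, a split that ran across the genotypes. Its SD over the 8 embryos of 1.14 log2 was larger than that of 99.2% of tested probes. Homozygous embryos differed from the others by -1.04 log2 (SE 0.66, limma adjusted p = 0.397), -1.86 without embryo 16 and -0.60 without embryo 2.

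At the other end, Grb10 had an SD of 0.054 log2 on its brighter probe, with 0.376% of tested probes below it, and of 0.27 on its other probe, with 62.9% below it. Mest, a paternally expressed gene for a membrane hydrolase, had an SD of 0.077, with 2.57% of tested probes below it. Mest had 12.68, 12.76 and 12.88 in homozygous embryos, 12.67, 12.76 and 12.80 in heterozygous embryos, and 12.65 and 12.70 in wild-type embryos. Of the 30 tested genes, 17 had an SD below the median of all tested probes, 0.22 log2. Their median SD was 0.24 for paternally and 0.18 for maternally expressed genes.

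**Figure D4:**
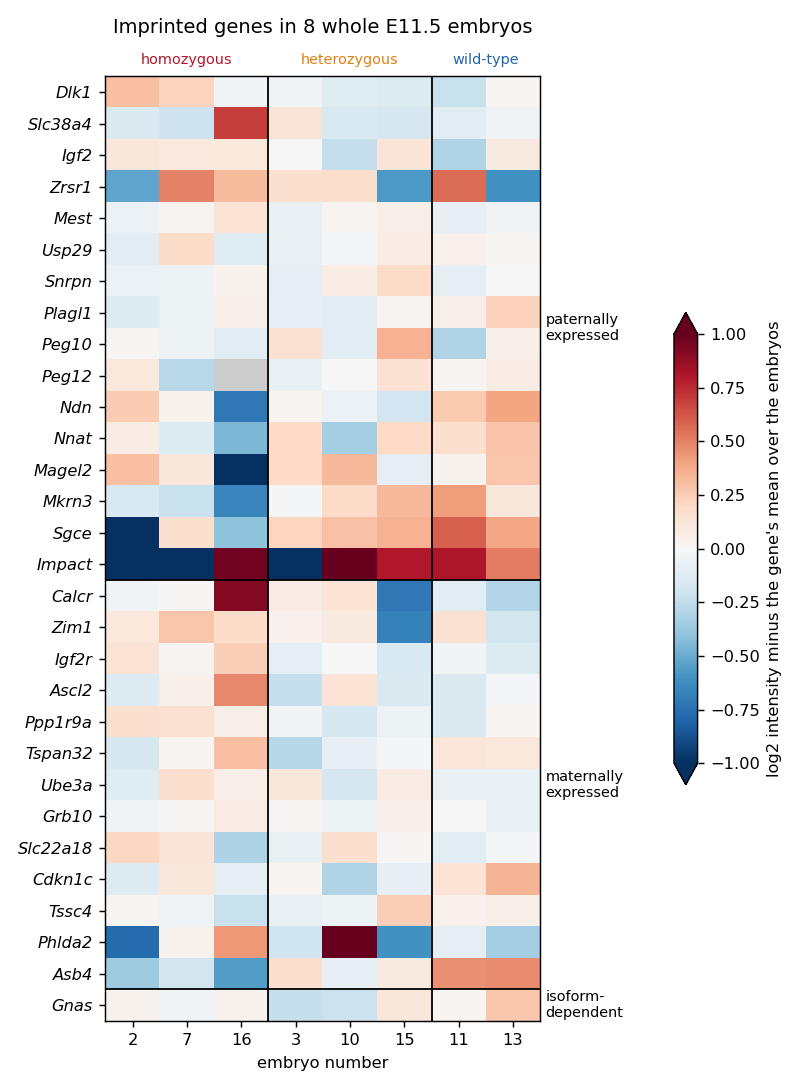
Log2 level of the 30 tested imprinted genes in each embryo minus the gene's mean over the embryos, with paternally expressed genes above, maternally expressed genes next and Gnas last, each class sorted by the difference between homozygous and the other embryos. Colours stop at 1 log2 either way, grey marks a spot left out, and Impact and Phlda2 show single embryos far from their mean.

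Other single genes differed little. Plagl1, a paternally expressed zinc finger regulator of an imprinted gene network, had 10.81, 10.88 and 10.99 in homozygous embryos, 10.85, 10.82 and 10.96 in heterozygous embryos, and 10.99 and 11.16 in wild-type embryos. Nnat, a paternally expressed membrane proteolipid of neurons, had 12.31, 12.10 and 11.78 in homozygous embryos, 12.43, 11.89 and 12.43 in heterozygous embryos, and 12.39 and 12.51 in wild-type embryos. Its difference of -0.27 log2 (limma adjusted p = 0.397) was -0.13 without embryo 16. Embryos 16 and 10 were its lowest.

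Zim1, a maternally expressed zinc finger gene next to Peg3, had 5.85, 6.02 and 5.93 in homozygous embryos, 5.78, 5.84 and 5.07 in heterozygous embryos, and 5.90 and 5.56 in wild-type embryos. Its difference was 0.31 log2 (limma adjusted p = 0.373), and 0.17 without heterozygous embryo 15, its lowest. Gnas, the stimulatory G protein alpha subunit locus, had 13.75, 13.68 and 13.75 in homozygous embryos, 13.48, 13.50 and 13.82 in heterozygous embryos, and 13.73 and 13.98 in wild-type embryos on its brighter probe. The difference between heterozygous and wild-type embryos was -0.25 on that probe and 0.25 on the probe of another transcript, so the probes disagreed in sign. Usp29, Zrsr1 and Slc38a4 differed by -0.026, 0.15 and 0.18 log2 between homozygous and the other embryos, with adjusted p (limma) of 0.631 or above.

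The mean levels of the 30 genes followed no common order of genotypes. The order wild-type, heterozygous, homozygous from high to low was seen in 10 genes and the reverse in 8, while in 12 genes the heterozygous mean lay outside the other means. Asb4 and Sgce were in the first group, Sgce with its place fixed in part by the filter on dim probes. Dlk1 and Igf2 were in the second.

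Genes that set or keep imprints, such as the DNA methyltransferases and the KRAB zinc finger machinery, were tested for 11 of 22 listed genes. With limma 0 of the 11 passed in homozygous against the other embryos, 0 had an unadjusted p below 0.05, and the median difference was -0.019 log2. Dnmt1, the maintenance methyltransferase, averaged 12.15 ± 0.080 in homozygous embryos (SD, n = 3) and 12.06 ± 0.036 in the other embryos (SD, n = 5). Zfp445, an imprint-protecting zinc finger gene, had the largest difference of the list. It had 7.94 and 8.49 in homozygous embryos 2 and 7, 8.13, 8.17 and 6.67 in heterozygous embryos, and 7.49 and 6.79 in wild-type embryos, with the spot of embryo 16 left out. Homozygous embryos lay above the wild-type ones and overlapped the heterozygous ones, with a difference of 0.77 log2 from the other embryos (SE 0.45, limma adjusted p = 0.372) and 1.08 from wild-type alone (limma adjusted p = 0.383). A list of further imprinted genes had 20 of 35 tested, none of which passed. At an unadjusted p below 0.05, 1 of the 20 had a higher mean (Dcn, 0.39 log2) and 4 a lower mean in homozygous embryos. Among the 4 were Tfpi2 (-0.59 log2), Pon3 (-0.53 log2, with the spot of embryo 16 left out) and Ddc (-0.23 log2). Over all probes the shares were 6.63% higher and 13.4% lower.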

How the data were processed

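Each array file holds, per the file headers, a background-corrected intensity per spot (spot mean minus local background median). The authors deposited a table of the same intensity divided by 1 factor per array, which matched the array files to within 5e-08. Control spots were left out of the 35587 spots, which left 34967 gene probes, and spots marked contaminated, irregular or masked were set missing. Intensities were quantile normalized with limma 3.58.1 (R 4.3.3), floored at the 5th percentile (an intensity of 4.5) and taken to log2, so that the log2 values were computed here from the deposited intensities. A probe was tested if it was above background on every array of some genotype (23389 probes), by lmFit and eBayes, two-sided, with Benjamini-Hochberg adjustment over all tested probes and a threshold of 0.05. One model set 3 homozygous against 5 other embryos, and another fitted 3 genotype means. RefSeq accessions gave gene names (GRCm38.p6; 14763 probes with 1 symbol, 20204 without), and a gene with several probes was read from the one with the highest mean. The number of arrays limits the precision.

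The members, lists and tests were chosen with earlier results of these data known. Values in every embryo are given for the 10 members with the smallest p in homozygous against the other embryos, the 4 with the smallest p in each other comparison, and Igf2, Dlk1, Cdkn1c, Mest, Plagl1, Grb10 and Igf2r. Phlda2, Ndn and Magel2, the promoters shown, the motif and the probes of the Y-linked covariate were chosen after values were seen. Scripts were tested on simulated data. Alternatives were other normalizations, floors, filters and priors, normexp with an offset of 50, array weights, a Y-linked covariate and embryos left out.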

Additional observations from a re-analysis of the deposited data

Results flagged for a closer look

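Among the 5 embryos that are not homozygous, an embryo far from the other 4 was found for 3 of 32 probes of imprinted genes. The rule marks about 1 in 20 such groups by chance, but these probes share the same 5 embryos. The share of all probes that it marks is not given here, so the count is a description only. Impact was 8.2 log2 in heterozygous embryo 3, with the nearest of the other 4 at 9.88 and the farthest at 10.36. Nnat was 11.89 in heterozygous embryo 10, with the nearest at 12.39 and the farthest at 12.51. Phlda2 was 9.97 in heterozygous embryo 10, with the nearest at 8.33 and the farthest at 7.82.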

How the results depend on the processing

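Among the 20 other settings, Asb4 in homozygous against wild-type embryos under array weights (-0.76 log2, limma adjusted p = 0.0411) was the 1 imprinted gene to pass. Each named gene was followed in homozygous against the other embryos, and elsewhere only where its p was among the 4 smallest, a choice made after a first run. Of these values, 532 kept direction and side of the threshold and 26 turned sign. In 17 of the 20 settings the maternal minus paternal gap of heterozygous against wild-type embryos was positive (-0.087 to 0.085).

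Under median scaling and with the authors' deposited table, the median of all probes in homozygous against the other embryos was -0.22 and -0.25, against -0.063. In that comparison Dlk1 was then -0.069 and -0.10, Igf2r -0.064 and -0.098, Ppp1r9a -0.017 and -0.050, Igf2 -0.21 and -0.25, Mest -0.31 and -0.35, Grb10 -0.35 and -0.38, and Gnas -0.38 and -0.41. Dlk1 was -0.062 and -0.097 against wild-type and -0.073 and -0.11 against heterozygous embryos. Relative to the all-probe median, Dlk1, Igf2r, Ppp1r9a and Igf2 stayed positive in all 20 settings, and Asb4 and Mkrn3 negative. Gnas was -0.020 with marked spots kept, -0.016 with array weights, and -0.031 to 0.090 on leaving out 1 embryo (-0.031 and -0.027 without heterozygous embryos 3 and 10). In heterozygous against wild-type embryos the other Gnas probe gave 0.25. Cdkn1c was 0.019 without wild-type embryo 13. With embryos 10 and 16 both left out, a setting chosen after seeing the data, Gnas was -0.034 and Grb10 -0.010.

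Under the same 2 scalings, median scaling first, the paternal median was -0.28 and -0.32 in homozygous against the other embryos, -0.25 and -0.29 against wild-type, and -0.29 and -0.32 against heterozygous embryos. The maternal median was -0.064 and -0.098, -0.14 and -0.17, and -0.053 and -0.086 in these comparisons. In homozygous against the other embryos it was 0.14 under cyclic loess and 0.0075 without embryos 10 and 16. Against wild-type, the paternal median was -0.051 with no filter, 0.023 with probes above background on all arrays and -0.043 with array weights. The maternal one was 0.16 with the Y-linked covariate and 0.037 without embryos 10 and 16. Against heterozygous embryos the paternal median was -0.0088 with probes above background on all arrays. In heterozygous against wild-type embryos the maternal median was -0.11 without embryos 10 and 16. Leaving out 1 embryo gave a paternal median of -0.11 to -0.037 and a maternal one of 0.036 to 0.18 in homozygous against the other embryos. Against wild-type these were -0.13 to -0.059 and 0.037 to 0.17, against heterozygous embryos -0.14 to -0.042 and 0.020 to 0.16, and in heterozygous against wild-type embryos -0.079 to -0.019 and -0.11 to 0.028.

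Of all probes, 25 passed in homozygous against the other embryos. The count was 42 under cyclic loess, 45 with the deposited table, 85 with normexp, 6 with no filter, 50 with probes above background on all arrays, 99 with array weights, 118 with a trended robust prior, 58 with the Y-linked covariate and 70 without embryos 10 and 16. Leaving out 1 embryo gave 5 to 314: 314 without embryo 7, 39 without 10, 14 without 3, 6 without 11, and 5 each without 15 and 13. Against wild-type alone 8 passed, and 27 did under median scaling, 20 under cyclic loess, 27 with the deposited table, 36 with normexp, 5 with a floor at the 1st percentile, 4 with no filter, 5 with marked spots kept, 186 with array weights, 48 with the trended prior and 33 without embryos 10 and 16. Leaving out 1 embryo gave 0 (embryo 11) to 42 (embryo 7). Against heterozygous embryos 5 passed, and 10 did under median scaling, 9 under cyclic loess, 12 with the deposited table, 11 with normexp, 16 with the trended prior and 33 without embryos 10 and 16, with 4 (embryos 3 and 15) to 58 (embryo 7) on leaving out 1. In heterozygous against wild-type embryos 0 passed, and 2 did under median scaling and with the deposited table, 1 each under cyclic loess, array weights and the trended prior, 9 without embryos 10 and 16, and 0 to 3 on leaving out 1 (3 without embryo 10). The causes were not tested. No paired analysis was possible because the genotypes share no embryo numbers, and the planned slide and scan block was not run because the headers name no batch with over 1 array. Dim probes such as Sgce and Magel2 lie close to background, which limits their precision.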
